A study of Mus musculus with 18 samples.

Results

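Slc2a6, Gm13398, Atp6v1c2 and Ighm were the 4 of 55450 genes that met a rule on the control and knockout lines. All 4 were far higher in control myotubes than in control myoblasts, lay at 0.991 to 1.41 times control in knockout myoblasts, and lay at 0.616 (Ighm) to 2.21 times control in knockout myotubes. They were chosen from counts per 1000000 counts of the library (CPM), averaged over 3 replicates with 0.1 added. The rule asked for at least 5 in control myotubes, at least 8 times control myoblasts, at most 1.5 times control in knockout myoblasts, and at least 0.5 times control in knockout myotubes. The values of control and knockout libraries chose the genes, so they are given below as a description and no test is made on them.

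Polyadenylated RNA was sequenced from C2C12, an established line of mouse myoblasts whose cells stop dividing and fuse to multinucleated myotubes when serum is lowered. There were 6 groups of 3 libraries: myoblasts in growth medium with 10% fetal bovine serum, and myotubes on day 3 in medium with 2% horse serum, each from 3 lines. The control line was a sorted mixture of cells that took up empty pX458, a Cas9 plasmid. For the other 2 lines the plasmid carried guide pairs that cut around the Meg3 promoter, and each line was grown from 1 cell. Their labels call 1 a Dlk1-Dio3 overexpressor and the other a Dlk1-Dio3 knockout, after the imprinted cluster of noncoding RNAs that Meg3 belongs to. All 3 lines share the C2C12 background and the transfection. Each genotype was 1 line, so genotype and clone cannot be told apart, and the replicates were not stated to be separate cultures, so p-values measure the spread between these libraries.

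Library totals ran from 41544358 to 79140702 counts. Meg3, the targeted gene, had 5222 to 7763 counts in each overexpressor library and 0 in all control and knockout libraries, so it does not check the knockout label, on which the directions for that line rest. The stage labels were checked with markers. By edgeR's quasi-likelihood test at adjusted p under 0.05, all 13 markers of proliferating myoblasts were lower in overexpressor myotubes than in overexpressor myoblasts. Of 57 sarcomere genes, 56 were higher and 1 lower. Over all 17912 genes tested, 33.0% were lower and 29.8% higher. The proliferation marker Mki67 was at 145 to 300.0 CPM in the myoblast libraries of all lines and at 10.9 to 45.0 CPM in the myotube libraries. Among myoblasts it was at 145 to 156 CPM in the knockout and 214 to 247 CPM in control. The sarcomere gene Myh3 was at 38.5 to 64.4 CPM in control myoblasts and 3595 to 4534 CPM in control myotubes. In the knockout Myh3 was at 2970 to 3854 CPM in myoblasts, which overlaps control myotubes, and at 6956 to 7000 CPM in myotubes. Some replicates stood apart. A chi-square of the counts per degree of freedom was 114 to 119 between overexpressor myotube replicate C and the other 2, against 23.1 between A and B. It was 33.1 to 37.3 between overexpressor myoblast replicate B and the other 2, against 8.47 between A and C. The results on the overexpressor are therefore given also without each library.

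Myoblast differentiation runs through the basic helix-loop-helix factors MyoD and myogenin, which bind E-box sequences with partner proteins and switch on genes for fusion, contraction and excitation. Slc2a6 encodes a member of the facilitative glucose transporter family, GLUT6, found on lysosomal membranes. Atp6v1c2 encodes a tissue-restricted form of the C subunit of the V-ATPase, the proton pump that acidifies lysosomes and other compartments. Ighm is the constant region of the immunoglobulin mu heavy chain, known from B lymphocytes. Gm13398 is a noncoding RNA gene of the antisense class in the annotation, without a known role used here.

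All coordinates are on mouse GRCm38, the assembly of the mm10 build named in the submitters' processing notes. Slc2a6 (ENSMUSG00000036067) lies on chromosome 2, 27021363 to 27027998, minus strand. Gm13398 (ENSMUSG00000087364) lies on the same chromosome at 27037285 to 27040853, plus strand, and overlapped no other annotated gene. Atp6v1c2 (ENSMUSG00000020566) lies on chromosome 12, 17284721 to 17329359, minus strand. Ighm (ENSMUSG00000076617) lies on chromosome 12, 113418558 to 113422730, minus strand.

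The RefSeq promoter table (build GRCm38.p6) held 3 of the 4 genes: Slc2a6, Gm13398 and Atp6v1c2. These sequences are shown because the genes rose together in myotubes, and MyoD and myogenin act through E-boxes. Each runs 5′ to 3′ from 250 bases before to 50 bases after the RefSeq start site, with matches to the general E-box CANNTG in capitals.
Slc2a6, chr2:27027949-27028248, minus strand: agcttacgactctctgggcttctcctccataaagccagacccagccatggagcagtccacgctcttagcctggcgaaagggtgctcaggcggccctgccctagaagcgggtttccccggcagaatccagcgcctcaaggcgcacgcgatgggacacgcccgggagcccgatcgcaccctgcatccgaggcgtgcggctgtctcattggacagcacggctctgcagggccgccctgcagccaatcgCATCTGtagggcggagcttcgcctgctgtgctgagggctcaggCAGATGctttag
Gm13398, chr2:27036875-27037174, plus strand: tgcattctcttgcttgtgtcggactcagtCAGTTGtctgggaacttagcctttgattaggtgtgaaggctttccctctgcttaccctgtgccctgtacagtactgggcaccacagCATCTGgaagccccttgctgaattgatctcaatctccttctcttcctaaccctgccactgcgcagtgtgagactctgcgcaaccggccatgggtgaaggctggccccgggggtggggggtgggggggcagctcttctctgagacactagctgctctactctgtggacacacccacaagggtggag
Atp6v1c2, chr12:17324681-17324980, minus strand: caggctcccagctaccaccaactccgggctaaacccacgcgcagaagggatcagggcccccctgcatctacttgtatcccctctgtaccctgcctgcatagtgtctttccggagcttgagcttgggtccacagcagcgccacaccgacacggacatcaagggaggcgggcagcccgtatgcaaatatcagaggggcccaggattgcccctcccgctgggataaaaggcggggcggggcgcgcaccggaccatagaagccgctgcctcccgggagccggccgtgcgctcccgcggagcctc

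The Slc2a6 promoter had 2 matches to CANNTG, starting 5 bases upstream and 38 bases downstream of the start site. That of Gm13398 had 2 as well, starting 221 and 135 bases upstream, and that of Atp6v1c2 had 0. Such a match was present in 72.3% of all 32851 promoters of the same length. The forms CAGCTG and CAGGTG (with its reverse complement CACCTG), both special cases of CANNTG, were in none of the 3 windows and in 32.9% of all promoters. None of the 3 windows held a MEF2 motif (3.19% of all promoters), a CArG motif (1.63%), CATTCC (14.7%), TCAGGTT (4.07%), TGANTCA (7.81%), TGACGTCA (1.79%) or CACGTG (7.15%), searched on both strands. For Slc2a6 the RefSeq start is the end of the gene given above. For Gm13398 it lies upstream of the gene, and for Atp6v1c2 inside it, so these windows are those of other start sites than the outermost ones annotated. The matches describe letters only.

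Of the 55450 genes, 10700 reached 5 in control myotubes and 283 of these were at least 8 times higher there than in control myoblasts. In the knockout line, 184 of the 283 kept at least 0.5 times the control level in myotubes. Among these 184, 180 were above 1.5 times control in knockout myoblasts, at a median of 19 times and between 1.53 and 254 times, and the 4 genes were at 0.991 to 1.41 times. Myogenin itself (Myog) was at 95.6 to 135 CPM in control and 1152 to 1302 CPM in knockout myoblasts. In bulk RNA, fewer cells making a transcript and less transcript per cell cannot be told apart. The other 99 genes were under 0.5 times control in knockout myotubes, 62 of them at most 1.5 times control in knockout myoblasts and 37 above it. The split into these classes is fixed by the rule.

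**Figure D1:**
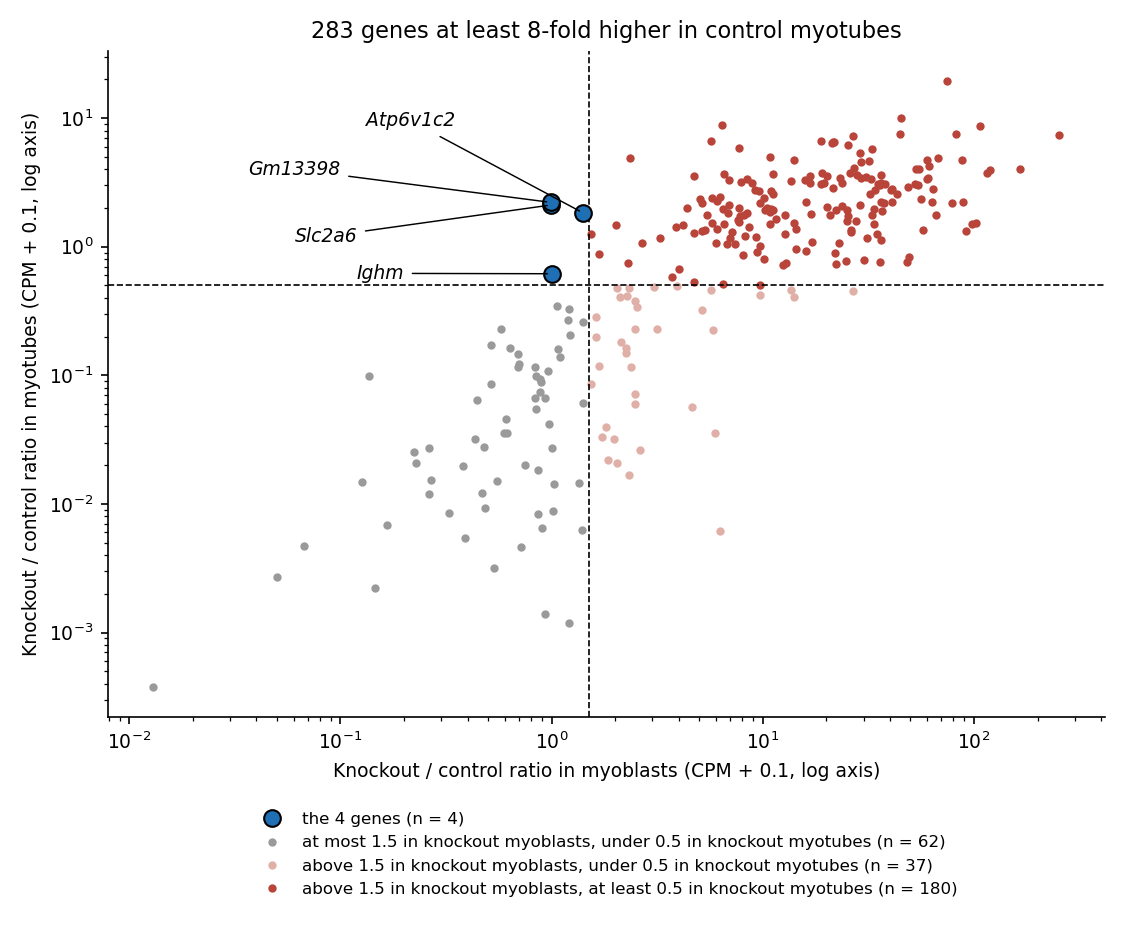
Ratio of knockout to control in myotubes (vertical log axis) against the same ratio in myoblasts (horizontal log axis), on mean CPM plus 0.1, for 283 genes at least 8 times higher in control myotubes. Dashed lines mark 1.5 and 0.5, and the 4 genes lie left of the vertical line and above the horizontal line, where 180 other genes lie to the right.

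Genes close to each limit show how sharp the choice was. Just past the limit of 1.5 in knockout myoblasts were Tspan32, a tetraspanin, at 1.53 times control, and Fmnl1, a formin, at 1.68 times. Just under the 8-fold limit were Palm3 at 5.88 and Dysf, the dysferlin gene of membrane repair, at 5.70 times. Just under the level of 5 were Dnase1l3 at 4.52 and Card14 at 3.79. Angptl6 at 0.345 and Galnt6 at 0.328 were the nearest that fell short of 0.5 times control in knockout myotubes. Inside the limits, Atp6v1c2 at 1.41 was the closest to 1.5, Ighm at 5.30 and at 0.616 the closest to the level and to 0.5, and Slc2a6 at 16.8 the closest to 8.

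None of the 4 genes was on any of 27 lists of muscle, signalling and cell type genes, which held 736 genes. Of the listed genes, 75 were among the 180 that were above 1.5 times control in knockout myoblasts, 13 among the 62 and 6 among the 37. The list of 57 sarcomere and contractile genes gave 40 of these, the 32 genes of excitation-contraction coupling 12, and the 33 of creatine and muscle metabolism 8. Most of the 180, of the 62 and of the 37 were on no list either, and there were only 4 genes, so nothing is read from their absence.

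Slc2a6 had the best measured myoblast level of the 4. It was at 2.25, 2.51 and 1.82 CPM in the control myoblast libraries A, B and C, and at 2.11, 2.49 and 1.96 CPM in knockout myoblasts. These ranges overlap, on 328 counts in knockout and 310 in control myoblasts, and the rule chose the gene on this ratio. In overexpressor myoblasts Slc2a6 was at 1.19, 1.16 and 1.52 CPM, under every control library. In myotubes it was at 38.7, 40.2 and 36.2 CPM in control, 88.6, 82.7 and 76.0 CPM in the overexpressor, and 70.4, 77.2 and 95.5 CPM in the knockout. Both clones lay above control in every library and overlapped each other. From the highest mean to the lowest the order was overexpressor, knockout and control myotubes, then control, knockout and overexpressor myoblasts, and the neighbours in this order overlapped for the first pair and for control and knockout myoblasts.

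**Figure D2:**
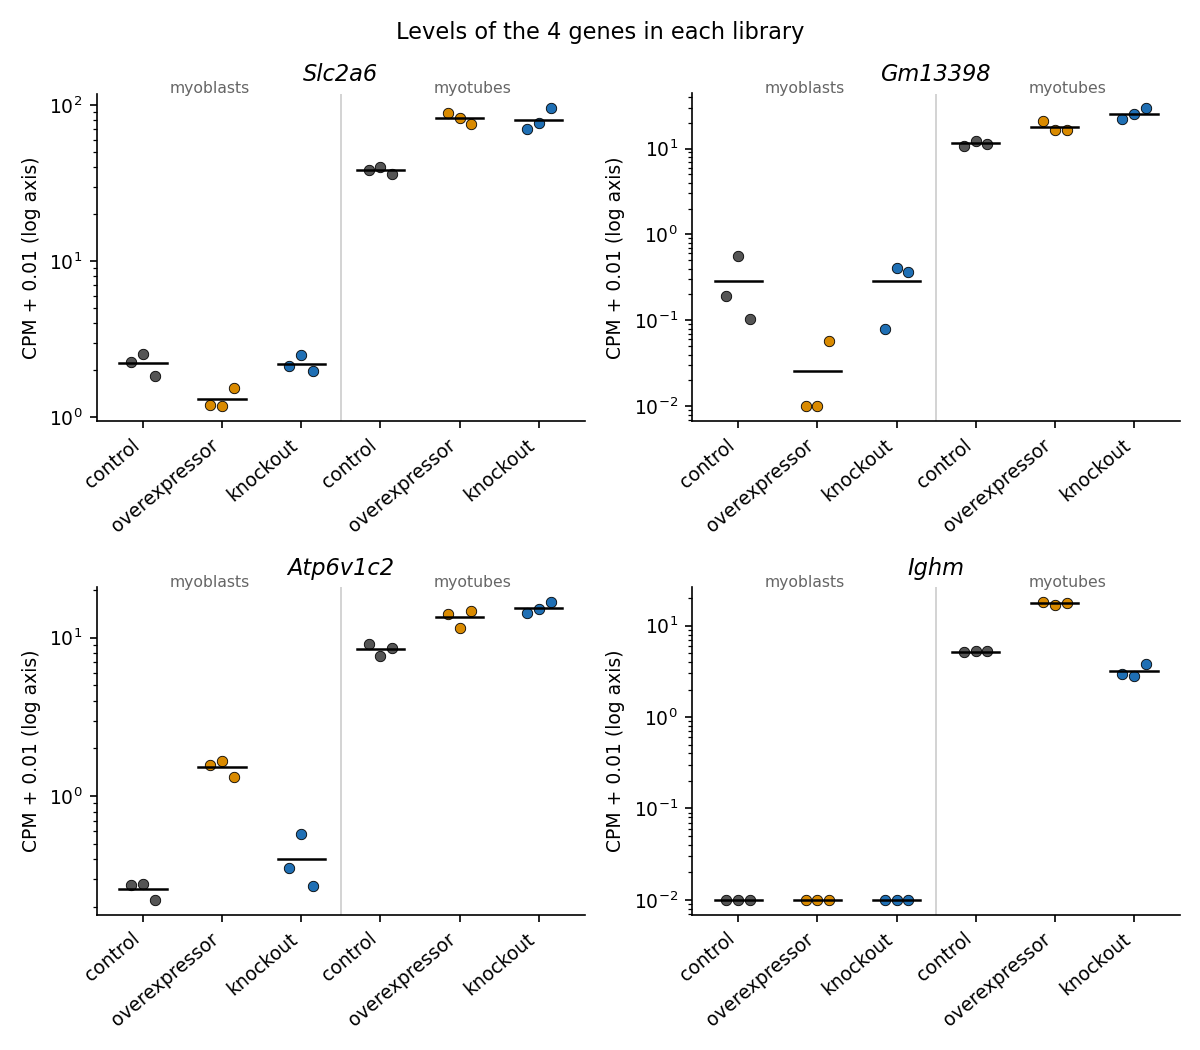
CPM plus 0.01 (vertical log axis) of Slc2a6, Gm13398, Atp6v1c2 and Ighm in each of 18 libraries, with a bar at the group mean of 3 libraries. For each gene the myotube libraries of all lines lie above the myoblast libraries, and Ighm sits at the bottom of the axis, at 0 counts, in all 9 myoblast libraries.

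Gm13398 followed a like course at lower counts. In myoblasts it had 9, 27 and 4 counts in the control libraries (0.183, 0.556 and 0.0944 CPM) and 3, 21 and 19 in the knockout (0.0687, 0.399 and 0.355 CPM). Replicates of 1 group thus differed several times over, on 43 counts in all for the knockout and 40 for control. Overexpressor myoblasts had 0, 0 and 2 counts, under every control library. In myotubes it was at 10.7, 12.2 and 11.4 CPM in control, 21.0, 16.6 and 16.2 CPM in the overexpressor, and 22.1, 25.0 and 29.3 CPM in the knockout. These 3 groups did not overlap, and knockout myotubes were the highest.

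Atp6v1c2 was also measured on few myoblast counts, 9 to 13 in a control library and 14 to 30 in a knockout library. Its levels were 0.264, 0.268 and 0.212 CPM in control and 0.343, 0.569 and 0.262 CPM in knockout myoblasts, which overlap. The ratio was 1.58 without the added 0.1 and 1.41 with it, so Atp6v1c2 met the limit of 1.5 only with the added value. In overexpressor myoblasts it was at 1.56, 1.66 and 1.32 CPM, above every control and knockout library. In myotubes it was at 9.05, 7.61 and 8.58 CPM in control, 14.0, 11.5 and 14.7 CPM in the overexpressor, and 14.3, 15.2 and 16.8 CPM in the knockout. The clones overlapped each other and lay above control. Atp6v1c2 shares 50 bases at its end with Pdia6, a chaperone gene on the other strand at 179 to 441 CPM over all libraries. No source used here says whether reads were counted by strand. Pdia6 was higher in myoblasts of each line, the opposite of Atp6v1c2.

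Ighm had 0 counts in all 9 myoblast libraries. Its ratio of 1.00 between knockout and control myoblasts is that of the added 0.1 alone, and shows only that both were under what 3 counts allow, at most 0.0722 CPM in any library. In myotubes it was at 5.13, 5.25 and 5.21 CPM in control, 18.2, 17.0 and 17.8 CPM in the overexpressor, and 2.93, 2.81 and 3.76 CPM in the knockout. The groups did not overlap, and Ighm was the only 1 of the 4 that was lower in knockout than in control myotubes. Against 3 counts per myoblast library, the mean in myotubes was at least 73.4-fold higher in control, at least 245-fold higher in the overexpressor and at least 46.1-fold higher in the knockout.

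Counted over the 4 genes, every knockout myoblast library lay above every control library for 0 (33.2% of 17912 genes tested) and below for 0 (35.6%). Every knockout myotube library lay above every control myotube library for 3 genes (34.9%) and below for 1, Ighm (35.9%). The rule used these contrasts, and nothing is read from them. Every overexpressor myotube library lay above every control library for all 4 (34.5% of genes) and below for 0 (25.2%). In overexpressor myoblasts 2 lay below control without overlap, Slc2a6 and Gm13398 (27.9% of genes), and 1 lay above, Atp6v1c2 (23.6%). The controls were used by the rule, so no test was made. Per kilobase of annotated exon, mean control myotube levels were 11.9 CPM for Slc2a6, 4.03 for Gm13398, 3.87 for Atp6v1c2 and 2.76 for Ighm.

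Slc2a6 and Gm13398 were neighbours. Their start sites are 9287 bases apart on opposite strands, pointing away from each other, with 1 pseudogene at 0.0191 CPM or less in every group mean between them. The next gene beyond Gm13398 is Mymk (chromosome 2, 27061636 to 27072179), which encodes myomaker, the membrane protein of myoblast fusion, and starts 44181 bases from Slc2a6. Mymk was at 46.1, 60.4 and 42.9 CPM in control myoblasts and at 676, 759 and 681 CPM in knockout myoblasts, a ratio of 14.1. In the same libraries Slc2a6 and Gm13398 had ratios of 0.996 and 0.991. The 3 genes were all far higher in myotubes than in myoblasts of the control, by 20.4, 16.8 and 30.5 times for Mymk, Slc2a6 and Gm13398.

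**Figure D3:**
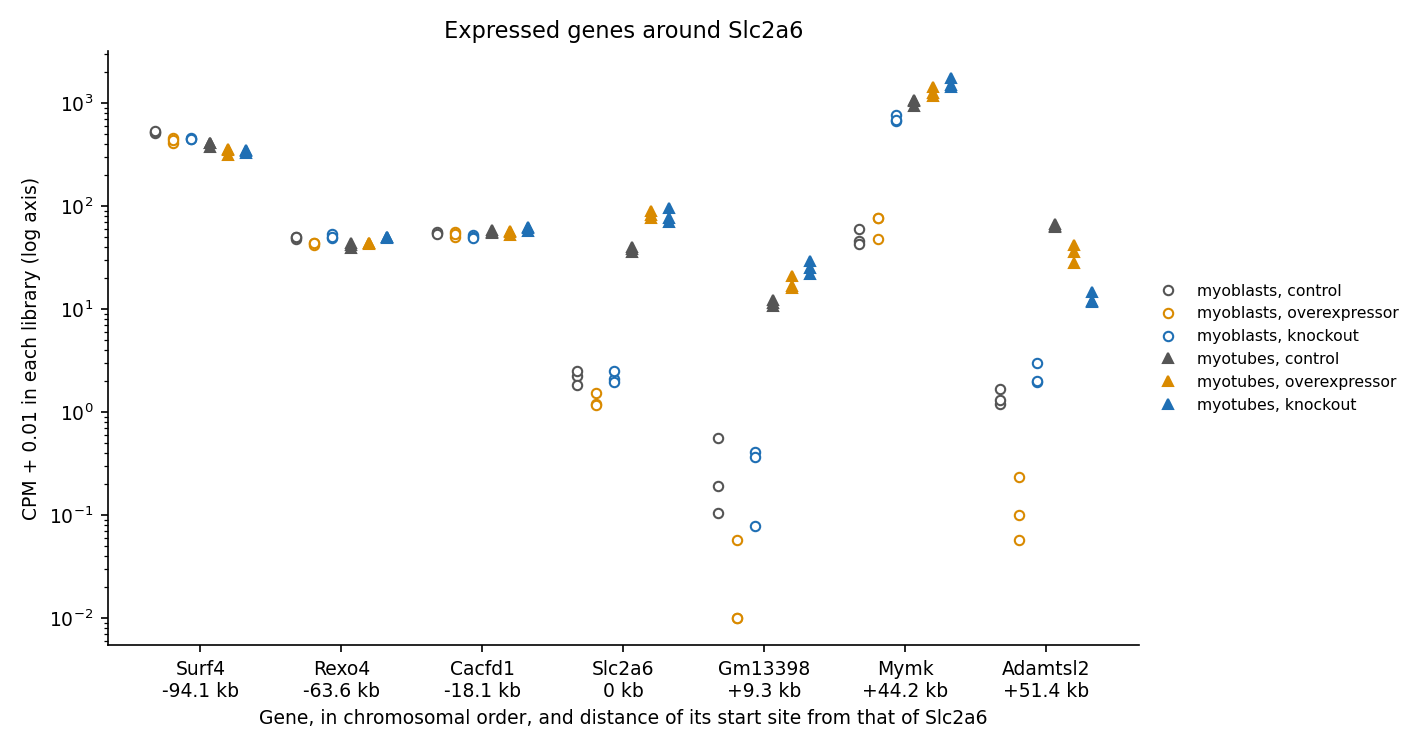
CPM plus 0.01 (vertical log axis) in each library for the 7 genes over 1 CPM within 100000 bases of Slc2a6, in chromosomal order, with the distance between start sites under each name. Open circles are myoblasts and filled triangles myotubes, and knockout myoblasts sit beside control myoblasts for Slc2a6 and Gm13398 but near the myotubes for Mymk.

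Further along, Adamtsl2, a secreted glycoprotein of the matrix, was at 1.39 ± 0.248 CPM in control and 2.32 ± 0.593 CPM in knockout myoblasts (SD, n = 3), a ratio of 1.62 on the scale of the rule. It was 43.5 times higher in control myotubes than in myoblasts but reached 12.7 ± 1.57 CPM in knockout myotubes against 64.6 ± 2.53 CPM in control (SD, n = 3). On the other side of Slc2a6, Cacfd1 ends 273 bases from it and was at 49.0 to 62.9 CPM in all 18 libraries. The run of genes with a large difference between stages thus covered Slc2a6, Gm13398, Mymk and Adamtsl2, and only Mymk was at several times its control level in knockout myoblasts. For Slc2a6 and Gm13398 the rule had fixed this in advance.

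Atp6v1c2 had 2 neighbours over 1 CPM within 100000 bases, Pdia6 and Nol10, and neither was 8 times higher in control myotubes. For Ighm the only such neighbour was a processed pseudogene. Ighd, the delta constant region next to Ighm, had 0 counts in all 9 myoblast libraries, as Ighm did. In myotubes Ighd had 19, 10 and 9 counts in control, 35, 43 and 54 in the overexpressor and 5, 4 and 5 in the knockout, the same order of lines as Ighm. Reads that run from Ighm into Ighd or match other heavy-chain segments cannot be told apart here, so the counts of this family are uncertain.

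**Figure D4:**
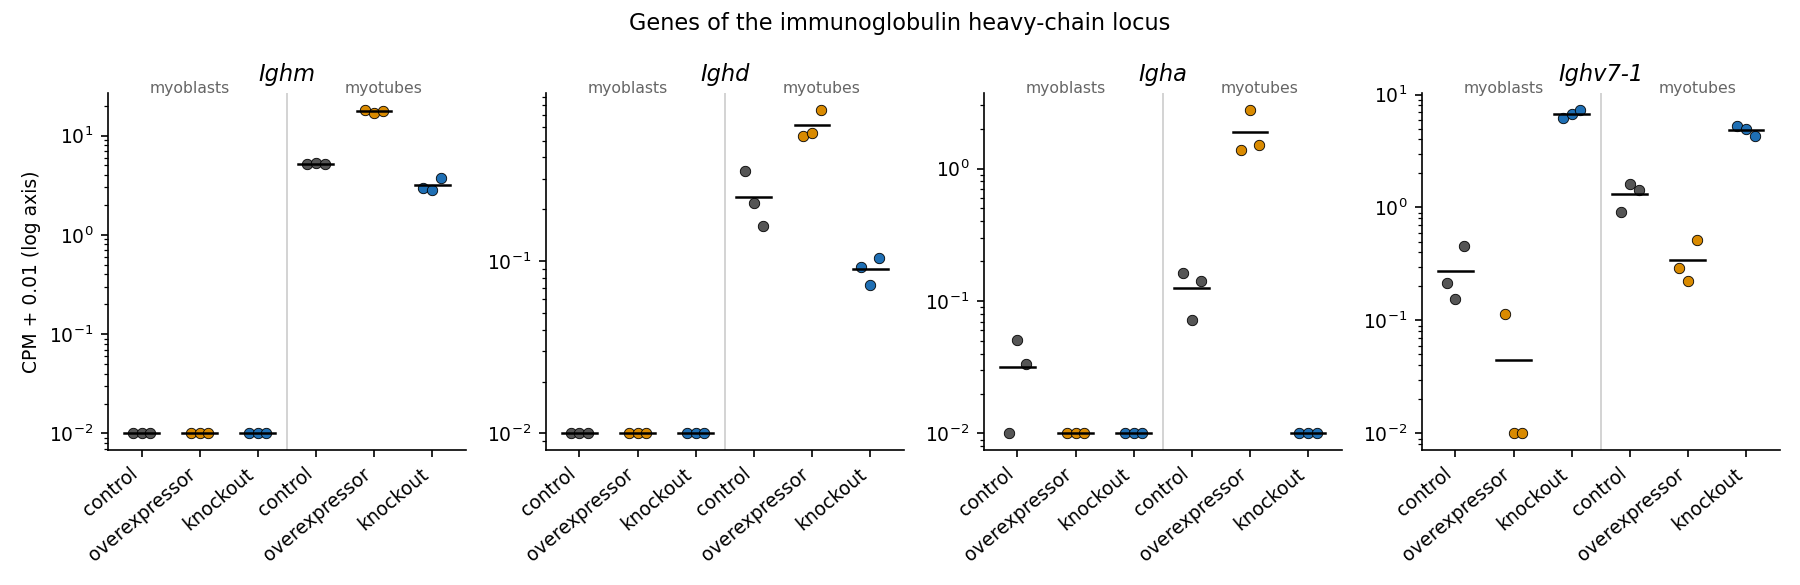
CPM plus 0.01 (vertical log axis, a different range in each panel) of Ighm, Ighd, Igha and the variable segment Ighv7-1 in each library, with a bar at the mean of 3 libraries. Ighm and Ighd are at 0 counts in all myoblast libraries and highest in overexpressor myotubes, and Ighv7-1 is highest in the knockout line.

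Of 268 immunoglobulin genes in the table, 17 had any count, and Ighm held 5280 counts over the 18 libraries against 2885 for all others together. Igha, the alpha constant region, had 91, 219 and 109 counts in overexpressor myotubes, 3 to 9 in control myotubes and 0 in every knockout library. The variable segment Ighv7-1 had another pattern, with 269 to 392 counts in knockout myoblasts, 226 to 321 in knockout myotubes and at most 85 in any other library. Markers of macrophages and leukocytes, whose part in the Ighm values was not tested, summed to 3.27 to 4.40 CPM in overexpressor myotubes, 3.88 to 4.10 in knockout myotubes, 7.97 to 9.02 in control myotubes and 6.42 to 14.3 in myoblasts over 12 markers. Cd14 gave the largest share of the sum in every group, and its mean was 6.37 CPM in control and 2.33 CPM in overexpressor myotubes. Means were also lower in overexpressor than in control myotubes for Cd68 (0.871 against 1.17 CPM), Csf1r (0.154 against 0.681) and Lyz2 (0.0126 against 0.104). Other markers had higher means in overexpressor than in control myotubes, among them Itgam at 0.202 against 0.071 CPM and Fcer1g at 0.132 against 0.0725 CPM. The B cell gene Cd79a was at 0.0425 against 0.022 CPM, with at most 8 counts in any library. Knockout myotubes had Itgam at 0.609, Fcer1g at 0.0799 and Cd79a at 0.0815 CPM. Ptprc, the pan-leukocyte marker, was at 0 in control myotubes, 0.0211 CPM in overexpressor myotubes, 0.0158 in knockout myotubes and 0.105 in knockout myoblasts. It had 28 counts over all libraries and at most 11 in any library. The myotube means of Ptprc, and that of Lyz2 in overexpressor myotubes, were under the level of 3 counts in a library (0.0379 to 0.0722 CPM). Nothing is read from differences at that level.

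The 2 protein families of the members were taken whole, by symbol and after the members were known. Of 12 Slc2a glucose transporter genes, Slc2a6 was the only 1 that was 8 times higher in control myotubes. In the overexpressor, 4 of the 9 family members tested were called higher in myotubes and 4 lower, where 29.8% of all 17912 genes tested were higher and 33.0% lower. Of the 4 called higher, Slc2a3 and Slc2a5 were near 0, with means of 0.109 and 0.0877 CPM in overexpressor myotubes. Slc2a1, the ubiquitous transporter GLUT1, was at 136 ± 5.0 CPM in control myoblasts and 73.2 ± 4.24 in control myotubes (SD, n = 3), and fell by 1.00 on the log2 scale in the overexpressor (edgeR adjusted p = 5.73e-10). Slc2a4, the insulin-regulated transporter of muscle, was at 2.03 ± 0.134 CPM in control myoblasts, 1.03 ± 0.189 in control myotubes, 4.06 ± 0.156 in knockout myoblasts and 11.2 ± 0.320 in knockout myotubes (SD, n = 3). Its ratio of knockout to control myoblasts was 1.95, against 0.996 for Slc2a6.

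Among 23 V-ATPase genes, 2 were 8 times higher in control myotubes, Atp6v1c2 and Atp6v0d2, a tissue-restricted d subunit. Atp6v0d2 was at 5.60 ± 0.720 CPM in control myotubes and at 0.386 ± 0.169 and 0.127 ± 0.0906 CPM in overexpressor and knockout myotubes (SD, n = 3), where Atp6v1c2 was above control. Atp6v1c1, the ubiquitous C subunit, was at 80.2 ± 2.01 CPM in control myoblasts and 98.7 ± 6.34 in control myotubes, and at 76.8 ± 0.835 and 66.3 ± 5.05 CPM in the same stages of the knockout (SD, n = 3). Between the stages of the knockout line, mean CPM was thus lower in myotubes for the ubiquitous C subunit and higher for Atp6v1c2. In the overexpressor 13 of the 18 V-ATPase genes tested were called higher in myotubes and 2 lower, at a median log2 fold change of 0.48. Over all 17912 genes tested, 29.8% were called higher and 33.0% lower.

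The overexpressor line was not used in choosing the genes, so its change from myoblasts to myotubes was tested. Its group levels came from its own libraries. The spread behind the p-values was estimated over all 18 libraries, including those the rule used. All 4 genes passed the low-count filter and all 4 were higher in overexpressor myotubes than in overexpressor myoblasts by edgeR's quasi-likelihood test, where 29.8% of 17912 genes were called higher and 33.0% lower. Ighm, with 0 counts in every myoblast library, passed the filter only through myotubes and could only be higher there, and Gm13398, with 2 counts in overexpressor myoblasts, had little room to be lower. The count of 4 is therefore a description, and Slc2a6 and Atp6v1c2 are the genes whose counts left the direction open. All 3 lines share the C2C12 background. Of the 180 other genes induced in control and kept in knockout myotubes, 179 were also higher in overexpressor myotubes (99.4%), a closer base than all genes. For each of the 4, every myotube library lay above every myoblast library, as for 28.0% of genes. Their fitted log2 fold changes lay between 3.20 and 12.91, where the median over all genes tested was -0.02.

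In this line Slc2a6 rose from 1.29 ± 0.197 to 82.4 ± 6.26 CPM (SD, n = 3). On the log2 scale this was 6.06 (SE 0.16, edgeR adjusted p = 1.58e-15). Only 1.93% of the genes tested had a higher log2 fold change. Atp6v1c2 rose from 1.52 ± 0.173 to 13.4 ± 1.68 CPM (SD, n = 3), by 3.20 (SE 0.17, edgeR adjusted p = 1.08e-11). Its rise was the smallest of the 4, on the highest myoblast level it had in any line.

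Gm13398 rose from 2 counts over all 3 overexpressor myoblast libraries to 3893 in myotubes, 1194 times per count sequenced, with a 95% counting interval of 330.0 to 9865 (edgeR adjusted p = 3.23e-10). Ighm rose from 0 to 3854 counts, at least 245-fold as above (edgeR adjusted p = 7.53e-12). Their fitted log2 fold changes of 10.07 and 12.91 depend on how a count near 0 is treated. Between stages the overexpressor showed the same direction as control and knockout for Slc2a6 and Atp6v1c2, whose direction was open. Gm13398 and Ighm did so too, with little or no room to be lower.

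**Figure D5:**
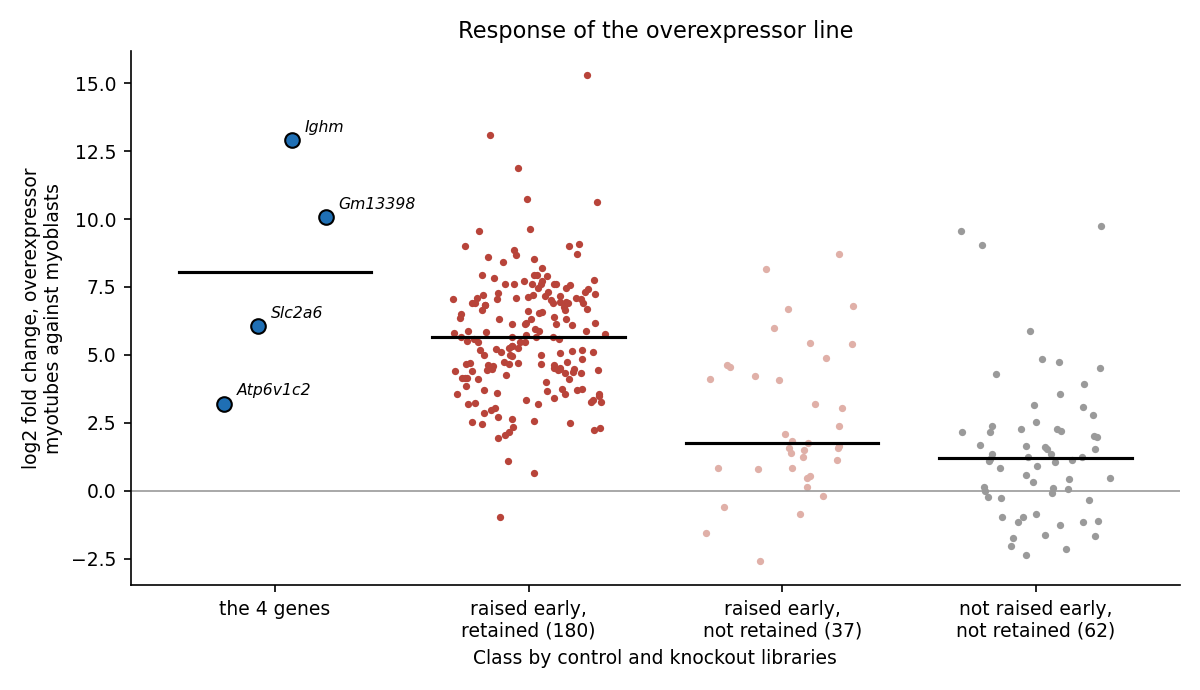
Log2 fold change of overexpressor myotubes against overexpressor myoblasts (vertical axis) for the 4 genes and for the other genes that were 8 times higher in control myotubes, split by their knockout levels, with a bar at each median. The 4 genes lie between 3.20 and 12.91, and the medians of the other classes are 5.65, 1.77 and 1.19.

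The other classes were compared in the same contrast by counts alone. Of the 180 genes above 1.5 times control in knockout myoblasts and kept in knockout myotubes, 179 were higher in overexpressor myotubes than myoblasts and 1 lower, with a median log2 fold change of 5.65. Of the 62 genes not above 1.5 times control in knockout myoblasts and under 0.5 times in knockout myotubes, 35 were higher, 12 lower and 15 not called, with a median of 1.19. For the remaining 37 the counts were 28, 3 and 6, with a median of 1.77. The difference between the classes was not tested.

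The marks of the rule were also applied to the overexpressor. In overexpressor myoblasts 1 of the 4 genes, Atp6v1c2 at 4.64 times control, was above 1.5 times, and Ighm at 1.00, Slc2a6 at 0.606 and Gm13398 at 0.307 were not. Of the 180 genes, 94 were above 1.5 times control there, or 52.2%, at a median ratio of 1.56, and 11.1% of all genes tested were. In overexpressor myotubes all 4 were at least 0.5 times control, at 1.56 to 3.35 times, as were 163 of the 180 (90.6%), 2 of the 62 and 90.3% of all genes tested, so this mark does not set the 4 apart.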

How the data were processed

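The authors deposited raw counts per Ensembl gene, 1 column per library. The submitters' processing notes name STAR 2.7.9a, featureCounts, Subread 2.0.3, FastQC 0.11.7, DESeq2 1.32.0 and mm10, with no role. The annotation release and strand setting are not given in the sources used here. Variance-stabilised values were not used. Symbols matched 55104 IDs and 346 had none. CPM is count over column total. Libraries were grouped by title. edgeR 4.0.16 (R 4.3.3) tested the counts with TMM factors, filterByExpr, 1 coefficient per group over 18 libraries (12 residual degrees of freedom) and Benjamini-Hochberg adjustment at 0.05, and was tested on simulated data. A count of 0 allows at most 3 counts, 0.0379 to 0.0722 CPM by library, for counting error only. Ratio intervals are exact binomial at 95%. No replicate pair agreed within sampling noise, with a chi-square per degree of freedom of at least 4.72. Named genes were the 4 genes and the nearest genes at each limit. All others (neighbours, families, Mki67, Myh3) were chosen after their values were seen. The rule for naming genes in the text left out symbols such as Gm13398, which is named because it met the 4 conditions. The genes and lists were chosen with earlier results of these data known. Alternatives covered normalization, tool, filter, samples, replicate block and the rule's settings. The genes under 1 of these settings, a larger added value, are not reported here.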

Additional observations from a re-analysis of the deposited data

How the results depend on the processing

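All 4 genes were called higher in overexpressor myotubes than myoblasts under each of 13 alternatives: DESeq2 size factors, library totals, DESeq2's Wald test, no filter, the 6 overexpressor libraries alone, a test against a 2-fold change, the replicate block and leaving out each overexpressor library. Under each of them Ighm, with 0 counts in myoblasts, could only be higher. Gm13398, with 2 counts in overexpressor myoblasts, had little room to be lower. The direction was open only for Slc2a6 and Atp6v1c2. The log2 fold change ran from 5.98 to 6.18 for Slc2a6, 3.11 to 3.30 for Atp6v1c2, 9.51 to 12.95 for Gm13398 and 12.20 to 13.04 for Ighm, with adjusted p-values of at most 2.14e-06. With the replicate letter as a block 4 genes were called and Slc2a6 was at 6.06. No pairing by letter was seen across the lines. Within a line, the correlation of same-lettered myoblast and myotube libraries ran from -0.372 to 0.649. That of different-lettered ones ran from -0.759 to 0.733. Which genes met the rule depended more on its settings. Required in every pair of libraries, the conditions left 2 genes, Slc2a6 and Ighm, both called higher in the overexpressor (2). Leaving out 1 control or knockout library gave 3 to 5 genes, of which 3 to 5 were called. These counts all include Ighm, which could only be higher, and 29.8% of all genes tested were called higher. Gm13398 left without control myoblast replicate B and Atp6v1c2 without knockout myoblast replicate C, and Tspan32 joined without control myoblast replicate C or knockout myoblast replicate B. With a limit of 2 in knockout myoblasts Tspan32 and Fmnl1 joined, with a limit of 1 Atp6v1c2 left, and with TMM-scaled CPM the same 4 met it. Counts of 30 or fewer per control or knockout myoblast library limit what can be said of Gm13398 and Atp6v1c2 there, and 0 counts what can be said of Ighm.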

Other observations

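A further 15 genes met every condition of the rule except the level of 5 in control myotubes, and were chosen after their values were seen. All 15 were called higher in overexpressor myotubes than in overexpressor myoblasts by edgeR's quasi-likelihood test (29.8% of all genes tested were), but with myoblast levels at or near 0 they had little room to be lower, so the count is a description only. Myl2, the slow and ventricular regulatory myosin light chain, was at 1.15 ± 0.347 CPM in control myotubes, 11.5 ± 1.97 in knockout myotubes and 39.6 ± 0.823 in overexpressor myotubes (SD, n = 3). It had at most 3 counts in any myoblast library, so a sarcomere gene did share the pattern below the level asked for. Ptgds, a prostaglandin D2 synthase, was at 2.53 ± 0.442, 5.33 ± 0.641 and 8.57 ± 1.68 CPM in control, knockout and overexpressor myotubes (SD, n = 3), with at most 6 counts in any myoblast library. Dnase1l3, a secreted nuclease, was at 4.42 ± 0.136, 5.90 ± 0.713 and 8.64 ± 0.716 CPM in the same order (SD, n = 3). Hydin and Fxyd6 had 0 counts in overexpressor myoblasts and stayed low in overexpressor myotubes, at 0.0456 and 0.647 CPM, against 3.41 and 2.94 CPM in control myotubes.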
